A study of Homo sapiens with 9 samples.

Results

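BEX1, BEX2, BEX4 and BEX5 are 4 genes of the brain expressed X-linked family. All probe sets that name 1 of these genes alone were taken, which gave 4 probe sets of the 54669 with a value on every array and 4 of the 19775 genes on the array. BEX2 was chosen by its log2 signals on these same arrays, which rose under treatment, so its levels and changes are given as a description with no test, and the other 3 joined it by family name. The samples were 9 cultures of HT-29, an established human colon adenocarcinoma cell line, 3 at each dose of 5-Aza-deoxycytidine (5-Aza). The 3 cultures of the 0 µM group received the vehicle dimethyl sulfoxide alone, and the others received 5 µM or 10 µM 5-Aza, for 5 days. Nothing else differed between the groups by their labels, no gene was altered, and all 9 cultures share the single cell line, so the replicates carry the spread between cultures and not between donors. Total RNA of each culture was measured on 1 Affymetrix U133 Plus 2.0 array.

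BEX proteins are small, largely unstructured adaptor proteins of placental mammals, encoded in a cluster on the long arm of the X chromosome together with the related TCEAL genes. They are most abundant in brain and in some endocrine cells. BEX1 and BEX3 bind the intracellular part of the neurotrophin receptor p75 (NGFR), and BEX2 has been described with the transcription factors LMO2 and LDB1 and as an epigenetically silenced gene in glioma. 5-Aza is incorporated into replicating DNA and traps DNA methyltransferases, of which DNMT1 is the maintenance enzyme, so that methylation at CpG sites is lost over cell divisions. DNA methylation itself was not measured on these arrays.

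All values below are deposited log2 signals, and the median of all probe sets of an array, 5.07 to 5.52 on the log2 scale, serves as its floor. A value under that floor is not distinguished from background here. The limma test took the 11756 genes with all 3 arrays of some group at the floor or higher. A call needed more than 2-fold and p no higher than 0.05 after Benjamini-Hochberg adjustment. On 2 arrays, those of 10 µM replicates 2 and 3, the 18S ribosomal control stood apart, at 13.5 and 13.6 against 11.8 to 12.6 on the other 7, and values without them are given where they matter. Of the 4 BEX genes, BEX2 passed this filter, through its 5 µM and 10 µM arrays, and BEX1, BEX4 and BEX5 did not.

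The sequence just upstream of each gene start is shown because 5-Aza lowers methylation at CpG sites. These are the 250 bases before the first start that RefSeq lists for each gene (GRCh38.p14), written 5′ to 3′ on the strand of the gene, which is the minus strand for BEX1, BEX2 and BEX5 and the plus strand for BEX4. Capitals mark the CpG sites.
BEX1, chrX:103064172-103064421: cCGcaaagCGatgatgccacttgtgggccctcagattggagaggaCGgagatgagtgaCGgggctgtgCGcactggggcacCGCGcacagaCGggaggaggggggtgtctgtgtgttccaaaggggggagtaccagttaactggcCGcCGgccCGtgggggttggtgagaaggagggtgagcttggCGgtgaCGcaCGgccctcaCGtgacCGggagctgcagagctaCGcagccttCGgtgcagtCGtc
BEX2, chrX:103310991-103311240: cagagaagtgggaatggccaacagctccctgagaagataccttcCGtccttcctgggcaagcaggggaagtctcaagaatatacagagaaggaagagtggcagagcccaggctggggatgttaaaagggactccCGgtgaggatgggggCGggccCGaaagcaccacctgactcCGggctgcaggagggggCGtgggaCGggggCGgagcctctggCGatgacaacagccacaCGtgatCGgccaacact
BEX4, chrX:103214842-103215091: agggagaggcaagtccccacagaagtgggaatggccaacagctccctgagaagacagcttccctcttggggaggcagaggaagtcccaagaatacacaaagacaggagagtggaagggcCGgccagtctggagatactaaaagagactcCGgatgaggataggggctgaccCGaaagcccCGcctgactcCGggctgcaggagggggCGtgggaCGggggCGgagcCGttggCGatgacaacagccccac
BEX5, chrX:102155978-102156227: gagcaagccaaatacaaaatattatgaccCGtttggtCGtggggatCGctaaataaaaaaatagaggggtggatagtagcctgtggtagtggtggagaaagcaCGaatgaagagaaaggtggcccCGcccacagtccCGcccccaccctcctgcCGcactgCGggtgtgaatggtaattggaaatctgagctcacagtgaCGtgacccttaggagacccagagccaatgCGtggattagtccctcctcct
The window of BEX2 holds 11 CpG sites, which is the median of the 27305 genes with such a window. BEX4 and BEX5 hold 10 each and BEX1 holds 19, and 34.3% of all windows hold at least as many as BEX1. The middle range of all windows, from the lower to the upper quartile, is 3 to 23 sites, so none of the 4 genes lies outside it. The GC content is 65.6% for BEX1, 61.2% for BEX2, 61.6% for BEX4 and 52.8% for BEX5.

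The upstream windows of BEX2 and BEX4 were alike. In a global alignment they were identical in 202 of 271 columns, or 74.5%, whereas the other 9 pairs among the 5 genes BEX1 to BEX5 ranged from 47.9% to 53.1%. BEX2 and BEX4 shared an unbroken run of 45 bases close to the start, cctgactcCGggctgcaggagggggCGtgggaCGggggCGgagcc, which was present in 2 of the 27305 windows, those of these genes. BEX1 and BEX3 shared a run of 33 bases, again present in 2 windows. The E-box CACGTG, which reads the same on both strands, occurred once upstream of BEX1 and of BEX2 and not in the windows of BEX4 and BEX5, and 6.5% of all windows hold it. The GC box GGGCGG was searched on both strands and does not overlap the E-box in any of these windows. It occurred 2 times upstream of BEX2, 1 time upstream of BEX4 and 2 times upstream of BEX5, and 42.3% of windows hold it. None of the 4 windows holds TATAAA on either strand, against 11.1% of all windows.

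BEX2, an adaptor protein gene of the family, was below the floor in every vehicle culture and above it in every treated culture. Its probe set read 3.54, 0.38 and 2.79 on the log2 scale on the arrays of 0 µM replicates 1 to 3. The 5 µM arrays read 8.28, 8.15 and 8.05. The 10 µM arrays read 5.80, 6.64 and 6.25. No 2 groups overlapped, the 5 µM cultures were highest, and the 10 µM cultures lay between the others. The mean was 2.23 ± 1.65 at 0 µM, 8.16 ± 0.11 at 5 µM and 6.23 ± 0.42 at 10 µM (SD, n = 3 each), so the treated replicates were close together and the vehicle values, all under the floor, were scattered.

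Because the vehicle level is only bounded, the rise of BEX2 is given as a lower bound, with each value under the floor of its array raised to that floor. BEX2 was at least 8.07-fold higher at 5 µM and at least 2.12-fold higher at 10 µM than in the vehicle cultures. The measured means differ by 5.92 and 3.999 on the log2 scale, differences that rest on vehicle signals within background. The step from 5 to 10 µM is measured on both sides, and there BEX2 was 3.80-fold lower at 10 µM, a difference of -1.93 on the log2 scale with an SD of 0.43 carried over from the 2 groups. By measured rise BEX2 ranked 10 among the 11756 tested genes at 5 µM and 18 at 10 µM, and by the bounded rise 25 and 397. These ranks are a description only, since BEX2 was picked for its rise on these arrays. In comparison, 1011 of the tested genes (8.6%) were called higher at 5 µM than at 0 µM and 715 (6.08%) at 10 µM than at 0 µM, while 245 (2.08%) were called lower at 10 µM than at 5 µM.

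**Figure D1:**
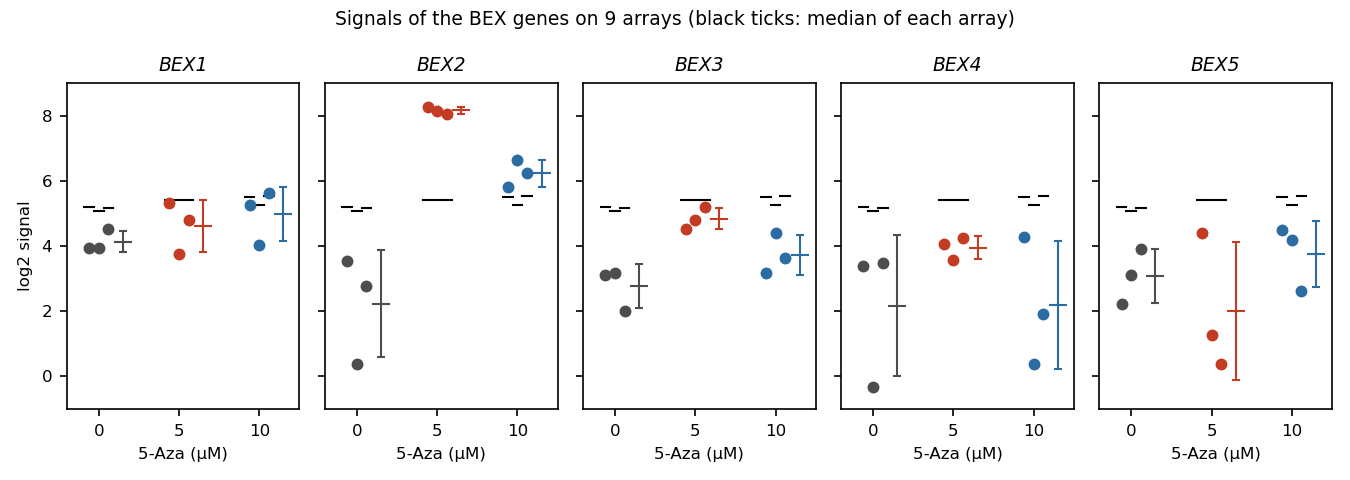
Log2 signals (vertical axis) of the 5 BEX genes by 5-Aza concentration in µM. Points stand for single arrays, the bar beside each group is its mean ± SD (n = 3), and the black ticks are the floor of each array, the median of all its probe sets. BEX2 is above the floor on all 6 treated arrays, whereas 1 point of BEX1 and none of BEX3, BEX4 and BEX5 reach it.

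Genes that went from below the floor on all vehicle arrays to the floor or above on all 5 µM arrays numbered 330 of 7317, or 4.51%, and 136 (1.86%) did so at 10 µM, with 118 in both. BEX2 was among these 118 and had the 14th largest bounded rise of the 330, again a description of a gene picked for its rise. Another 6250 genes, 31.6% of those on the array, stayed below the floor on all 9 arrays, and BEX3, BEX4 and BEX5 were among them.

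BEX1, a binding partner of p75, stayed close to background. Its vehicle arrays read 3.95, 3.94 and 4.51, its 5 µM arrays 5.32, 3.75 and 4.79, and its 10 µM arrays 5.25, 4.04 and 5.63. The groups overlapped, and 1 of the 9 arrays, 10 µM replicate 3, reached the floor, by 0.11 on the log2 scale. The group means were 4.14 ± 0.32, 4.62 ± 0.80 and 4.97 ± 0.83 (SD, n = 3 each).

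BEX4, a gene with tubulin-binding product whose upstream sequence resembles that of BEX2, had no array at the floor. Its arrays read 3.38, -0.32 and 3.47 at 0 µM, then 4.06, 3.56 and 4.24 at 5 µM, then 4.28, 0.38 and 1.93 at 10 µM. All 3 values at 5 µM lay above the vehicle values, yet all 6 were background signals, and the 10 µM values spanned both groups. No fold is given for it.

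BEX5, a member with little known function, was equally dim. Its arrays read 2.23, 3.12 and 3.90 at 0 µM, 4.41, 1.26 and 0.38 at 5 µM, and 4.49, 4.18 and 2.61 at 10 µM. Every group overlapped with the others.

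BEX3, also called NGFRAP1 and the other p75-binding member, is not among the 4 genes chosen and lies 67.0 kb from the start of BEX2. Its arrays read 3.12, 3.19 and 2.00 at 0 µM, 4.54, 4.79 and 5.19 at 5 µM, and 3.19, 4.38 and 3.62 at 10 µM. The 5 µM values lay above those of the other 2 groups, and all 9 lay below the floor. Of BEX1, BEX3, BEX4 and BEX5, 2 (BEX3 and BEX4) thus had every 5 µM value above every vehicle value, as did 9.42% of the 6250 genes below the floor throughout. BEX3 alone of the 4 had every 10 µM value below every 5 µM value, as did 4.98% of those genes.

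When the filter on dim genes was dropped and all 19775 genes were fitted, none of BEX1, BEX4 and BEX5 was called in any of the 3 comparisons, with limma adjusted p from 0.345 for BEX1 at 10 against 0 µM to 0.996 for BEX4 in the same comparison. That fit called 6.7% of genes at 5 against 0 µM, 1.03% at 10 against 5 µM and 4.68% at 10 against 0 µM. In the same fit BEX3 was called higher at 5 µM, by 2.07 ± 0.42 on the log2 scale (SE, limma adjusted p = 0.0193), on signals that lay below the floor in both groups, so that no fold is given. The absence of a call for BEX1, BEX4 and BEX5 does not show that they did not change, since an array signal under the floor carries little of the level of the transcript. Whether probes of 1 BEX gene also bind transcripts of another was not tested. The symbols BEX1 and BEX2 have each been used for the other gene, so probe sets were matched by gene identifier.

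The culture and array controls were compared beside BEX2. DNMT1, the target of the drug, read 8.61 ± 0.10, 8.88 ± 0.09 and 9.27 ± 0.09 (log2, SD, n = 3) at 0, 5 and 10 µM, and did not pass 2-fold in any comparison. The actin 3′ minus 5′ control signal, a measure of RNA integrity, differed between the doses without overlap, from 1.91 to 2.29 at 0 µM, 2.49 to 2.69 at 5 µM and 2.84 to 3.16 at 10 µM. With that signal as a covariate the BEX2 differences were 6.07 at 5 against 0 µM, -1.81 at 10 against 5 µM and 4.25 at 10 against 0 µM. Without 10 µM replicates 2 and 3, whose 18S control stood apart, the 10 µM value of BEX2 rests on replicate 1, with a bound of at least 1.58-fold over vehicle and a difference of -2.35 from 5 µM.

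The genes around BEX2 on the X chromosome were examined next. RefSeq places BEX5 at chrX:102153712-102155977, BEX1 at chrX:103062651-103064171, BEX4 at chrX:103215092-103217246 and BEX2 at chrX:103309346-103310990 (GRCh38.p14). Within 1 Mb of the outermost of these, 41 other genes had a probe set, and 17 of them were tested. At 5 against 0 µM, 2 of the 17 were called higher (11.8%, beside 8.6% of all tested genes) and none lower (1.32% of all). Their median change was 0.05 on the log2 scale, beside 0.04 over all tested genes. At 10 against 5 µM no gene of the window was called, beside 0.264% higher and 2.08% lower over all. At 10 against 0 µM, 1 was called higher (5.9%, beside 6.08%) and none lower (1.5% of all). On chromosome X as a whole, 29 of 356 tested genes (8.1%, beside 8.6% of all) were called higher at 5 µM and 12 (3.4%, beside 1.32% of all) lower.

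TCEAL3, which encodes a small nuclear protein of the transcription elongation factor A-like group and lies 298.6 kb from BEX2, was called at 5 µM. Its arrays read 6.82, 6.17 and 6.63 at 0 µM, 8.13, 8.05 and 8.27 at 5 µM, and 7.27, 7.30 and 7.08 at 10 µM. The 3 groups did not overlap and stood in the same order as for BEX2, with 5 µM highest and 10 µM between. TCEAL3 was higher by 1.60 ± 0.17 at 5 against 0 µM on the log2 scale (SE, limma adjusted p = 0.000201). It was lower by less than 2-fold at 10 against 5 µM (-0.93 ± 0.17, adjusted p = 0.00964) and higher by less than 2-fold at 10 against 0 µM (0.67 ± 0.17, adjusted p = 0.0151), and neither difference counted as a call.

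GLA, the gene of the lysosomal alpha-galactosidase A, lies at the far end of the window, at -1911.5 kb from the start of BEX2. Its arrays read 8.04, 8.01 and 8.25 at 0 µM, 9.41, 9.26 and 9.57 at 5 µM, and 9.57, 9.50 and 9.59 at 10 µM. Treated and vehicle cultures did not overlap, and the 2 doses did. GLA was higher by 1.31 ± 0.11 at 5 against 0 µM (log2, SE, adjusted p = 7.47e-05) and by 1.45 ± 0.11 at 10 against 0 µM (adjusted p = 0.000117), with a difference of 0.14 between the doses (adjusted p = 0.422).

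**Figure D2:**
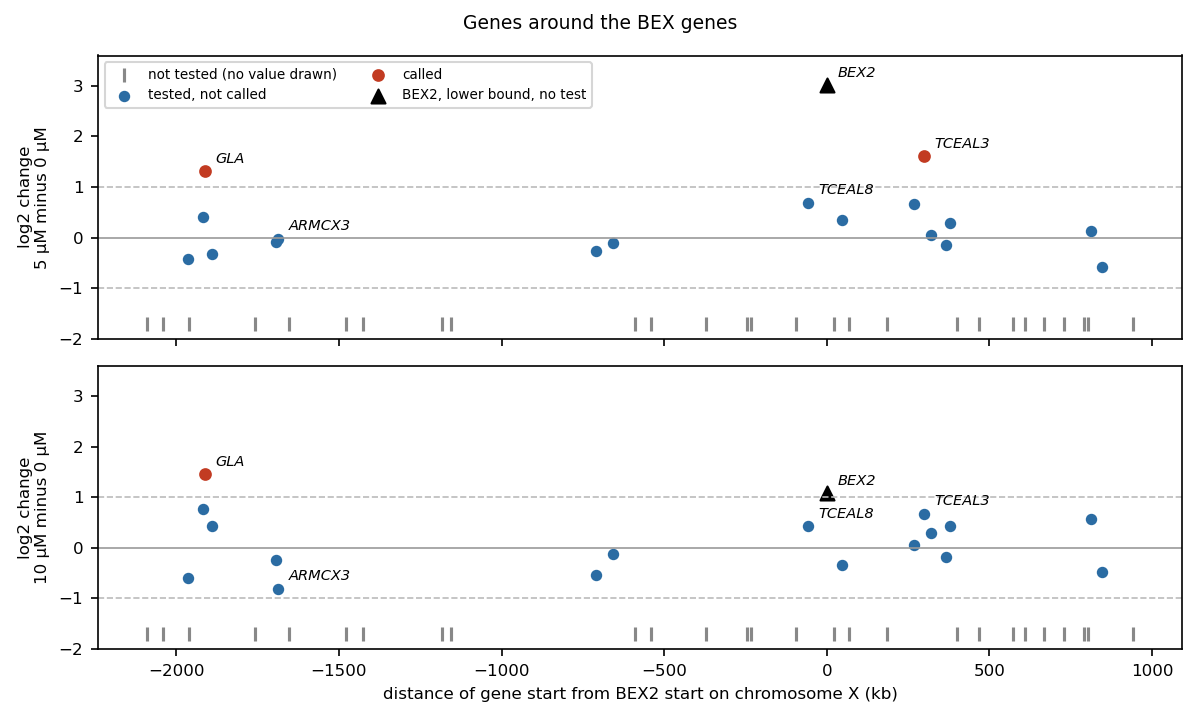
Log2 change (vertical axes) at 5 µM and at 10 µM against 0 µM for genes around the BEX cluster, by the distance of the gene start from that of BEX2 in kb. Red points are called genes, blue points tested genes that were not called, the triangle is the lower bound for BEX2, grey bars mark genes that were not tested, and dashed lines mark 2-fold. GLA and TCEAL3 are called at 5 µM and GLA at 10 µM.

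The TCEAL genes, which share the cluster and its origin with the BEX family, were detected where most BEX genes were not. Of the 5 that were tested, TCEAL1, TCEAL3, TCEAL4, TCEAL8 and TCEAL9, all reached the floor on all 9 arrays, and TCEAL2 and TCEAL7 were below it throughout. At 5 µM, 4 of the 5 had every value above the vehicle values, as did 31.0% of all tested genes, and TCEAL3 was the one called. The 5 changes ran from 0.05 to 1.60 with a median of 0.66 on the log2 scale, beside a median of 0.04 over all tested genes. TCEAL8 read 7.39, 7.46 and 7.31 at 0 µM and 7.80, 8.38 and 8.05 at 5 µM, a difference of 0.69 ± 0.16 (SE, limma adjusted p = 0.00997) that fell short of 2-fold.

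From 5 to 10 µM, 3 of the 5 TCEAL genes had every value below those at 5 µM, against 18.6% of all tested genes, and TCEAL1 had every value above, against 17.3%. None of them was called. TCEAL9 read 10.74, 10.96 and 10.88 there and 9.99, 10.50 and 10.00 at 10 µM, a difference of -0.69 ± 0.15 (SE, limma adjusted p = 0.018). TCEAL4 differed by -0.61 ± 0.23 (adjusted p = 0.107). The median over the 5 genes was -0.61.

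**Figure D3:**
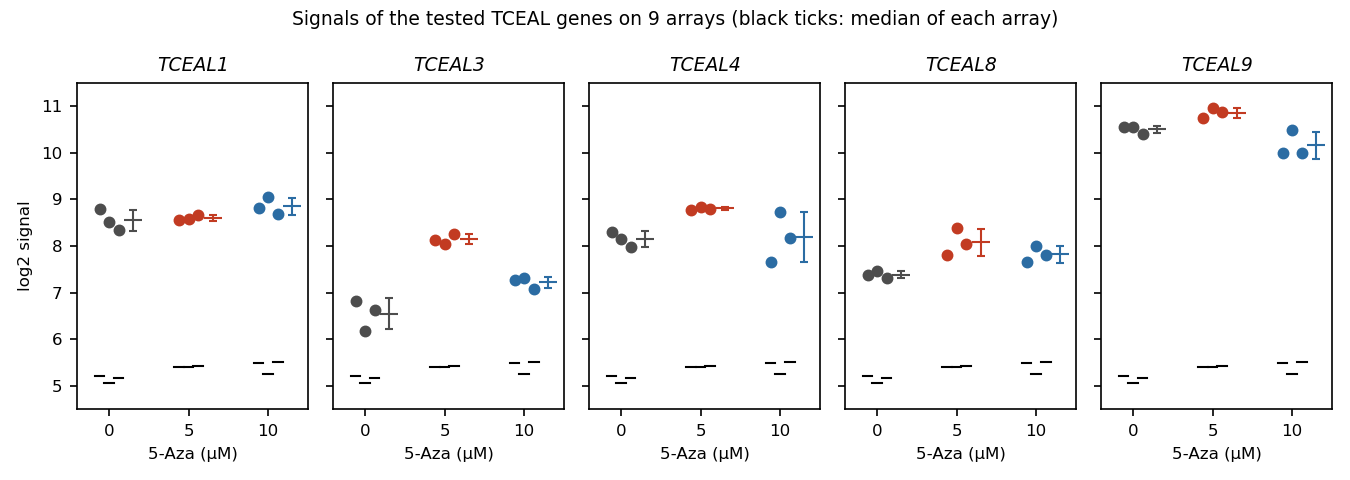
Log2 signals (vertical axis) of the 5 tested TCEAL genes by 5-Aza concentration in µM, drawn as for the BEX genes with 1 point per array, the mean ± SD (n = 3) and the floor of each array as black ticks. All points lie above the floor, and the groups of TCEAL3 are separate.

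The ARMCX genes of the same region, which encode mitochondrial and nuclear armadillo-repeat proteins, were read beside them. Of 4 tested, none was called in any comparison, where 8.6% of all tested genes were called higher and 1.32% lower at 5 against 0 µM, and their changes there ran from -0.32 to -0.02. Over all tested genes, 0.264% were called higher and 2.08% lower at 10 against 5 µM, and 6.08% and 1.5% at 10 against 0 µM. At 10 against 5 µM 2 of the 4 had every value below those at 5 µM, as did 18.6% of all tested genes. Every value was above in 1 of the 4, as in 17.3% of all tested genes. ARMCX3, which acts in mitochondrial transport in neurons, read 10.02, 10.09 and 10.10 at 10 µM against 10.90, 11.02 and 10.71 at 0 µM, lower by less than 2-fold (-0.81 ± 0.11, SE, limma adjusted p = 0.00105). A second ARMCX3 probe set gave -0.87 ± 0.11 in a fit of probe sets in place of genes (adjusted p = 0.00127). With equal array medians ARMCX3 was called lower at 10 against 0 µM, by -1.08 on the log2 scale.

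TAF7L, a germ cell subunit of the TFIID complex at the far end of the window, was singled out after its values were seen, because its 2 probe sets stood on different sides of the filter. The probe set that represents it reached the floor on no vehicle array and on 2 arrays at 5 µM, with 5.46, 4.64 and 5.54, so TAF7L was not tested. Its other probe set read 0.14, 2.23 and 2.20 at 0 µM, 5.60, 6.41 and 5.64 at 5 µM, and 4.32, 2.00 and 0.93 at 10 µM. All 3 arrays at 5 µM and no other array reached the floor there. TAF7L is given by its values alone, and it counts among the calls of the window in some of the alternative fits.

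Genes of the neurotrophin receptor p75 and of other proteins that BEX proteins are known to act with formed a list of 42, of which 34 had a probe set and 27 were tested. NGFR, p75 itself, was below the floor on all 9 arrays, with 1.68, 1.63 and 0.58 at 0 µM, 3.94, 3.92 and 3.62 at 5 µM and 2.20, 2.38 and 2.04 at 10 µM. At 5 against 0 µM, 3 of the 27 were called higher (11.1%, beside 8.6% of all tested genes) and none lower, with a median change of 0.04. At 10 against 5 µM, 1 was called lower (3.7%, beside 2.08%). At 10 against 0 µM, 3 were called higher (11.1%, beside 6.08%), with a median of 0.01. Among the called genes, BDNF, LINGO1 and LMO2 passed the filter through treated arrays alone, so these counts are given as a description. The list as described by counts and median stood near the background of the array.

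The ligand BDNF, a neurotrophin, read 4.21, 4.37 and 5.42 at 0 µM, 6.28, 6.52 and 6.28 at 5 µM, and 6.30, 5.58 and 6.31 at 10 µM. The vehicle values lay below all treated values, and 1 of the 3 was above the floor. BDNF was higher by 1.69 at 5 µM (log2, limma adjusted p = 0.00441, and 0.021 in the fit without the filter) and by 1.40 at 10 µM (adjusted p = 0.0118). These differences rest in part on the 2 vehicle signals below the floor. With low signals raised to the floor they were 1.13 and 0.83, and the call at 10 µM ended, as it did with the mean of the probe sets (0.86) and with the methods' t-test. LINGO1, a co-receptor of p75 at the neuronal surface, read 4.17, 2.48 and 4.90 at 0 µM, all below the floor, and 6.01, 6.08 and 6.02 at 5 µM. LINGO1 passed the filter through its 5 µM arrays alone. It was at least 1.85-fold higher at 5 µM, a bound under the 2-fold of a call. The measured difference was 2.185 on the log2 scale (limma adjusted p = 0.0111, and 0.0417 in the fit without the filter). That call ended with low signals raised to the floor (0.89) and with the methods' t-test (adjusted p = 0.0878). The 10 µM arrays of LINGO1 read 5.70, 6.12 and 5.47, with 2 at the floor (limma adjusted p = 0.0206 against 0 µM). Its call at 10 µM ended without 10 µM replicate 2.

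Downstream of the receptor, NFKBIA, the inhibitor of NF-kappaB, read 9.56, 9.59 and 9.67 at 0 µM, 10.58, 10.55 and 10.89 at 5 µM, and 9.59, 9.67 and 9.62 at 10 µM. NFKBIA rose by 1.07 at 5 µM (limma adjusted p = 0.00021) and was lower by as much at 10 against 5 µM (-1.05, adjusted p = 0.00218), so that vehicle and 10 µM arrays overlapped. Without 5 µM replicate 3 both changes were under 2-fold, at 0.96 and -0.94, and the call at 5 against 0 µM also ended with equal array medians (0.80) and with the mean of the probe sets (0.94). LMO2, the transcription cofactor described with BEX2, read 5.96, 5.52 and 5.00 at 0 µM, 5.87, 6.39 and 6.58 at 5 µM, and 6.41, 6.80 and 6.43 at 10 µM. It was called at 10 against 0 µM, higher by 1.06 (adjusted p = 0.0162), a call that ended without 0 µM replicate 3 (0.81) or without 10 µM replicate 2 (0.93), and without 0 µM replicate 1 LMO2 was also called at 5 against 0 µM (1.02). With the actin control as a covariate no gene of the list was called in any comparison, while differences stayed large for some, at 1.72 for LINGO1 at 5 against 0 µM, -1.20 for NFKBIA at 10 against 5 µM and 1.81 for LMO2 at 10 against 0 µM. That control differs between the doses, so the covariate and the dose cannot be told apart.

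**Figure D4:**
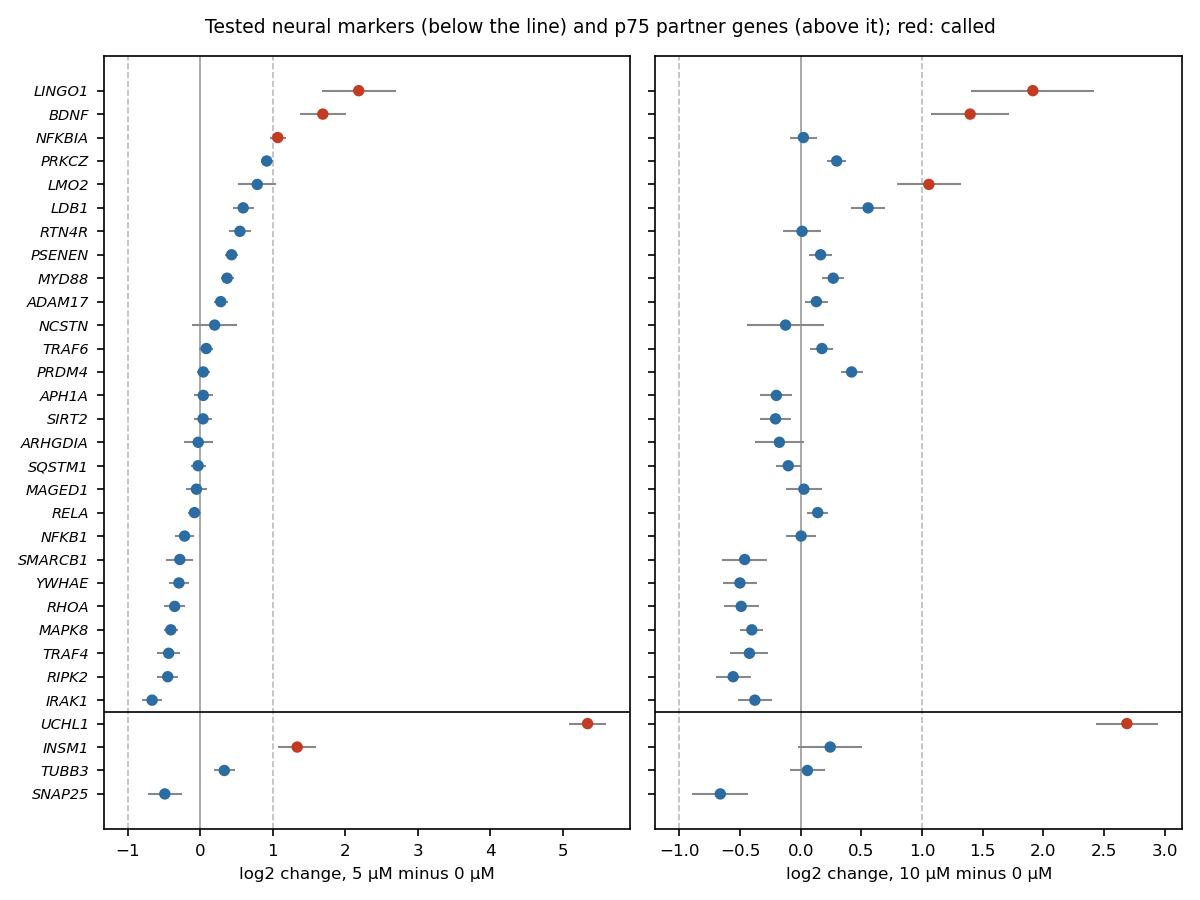
Log2 change ± SE (horizontal axes) at 5 µM and at 10 µM against 0 µM for the tested genes of the p75 partner list (above the line) and the tested neural markers (below it). Red points are called genes and dashed lines mark 2-fold. LINGO1, BDNF, NFKBIA, UCHL1 and INSM1 are called at 5 µM.

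Since neural and neuroendocrine cells are the usual site of BEX expression, 14 of their markers were read beside BEX2. Of the 12 with a probe set, 4 were tested, and 6 were below the floor on all 9 arrays (SYP, CHGA, NEFL, NEFM, STMN2 and ELAVL4). At 5 µM, 2 of the 4 were called higher, UCHL1 and INSM1, beside 8.6% of all tested genes. Both passed the filter through their 5 µM arrays alone, so this count is given as a description. TUBB3, a neuronal tubulin, differed by 0.33 and SNAP25, a synaptic vesicle fusion protein, by -0.49 at 5 against 0 µM, and neither was called. UCHL1, a deubiquitinase abundant in neurons, read 2.65, 3.19 and 2.29 at 0 µM, 8.01, 7.99 and 8.15 at 5 µM, and 5.82, 5.42 and 4.96 at 10 µM. It was at least 7.48-fold higher at 5 µM than at 0 µM. The measured difference was 5.34 on the log2 scale, on vehicle signals below the floor. Its limma adjusted p was 5.09e-06, and 0.000157 in the fit without the filter. UCHL1 was lower by 2.65 at 10 against 5 µM, with 2 of the 10 µM arrays at the floor. The adjusted p was 0.00145, and 0.0147 without the filter. A second UCHL1 probe set read 5.63, 2.10 and 4.57 at 0 µM and 5.20, 5.35 and 5.08 at 5 µM. It reached the floor on 1 vehicle array and on no treated array, so the rise rests on 1 of the 2 probe sets. INSM1, a neuroendocrine transcription factor with 1 vehicle array at the floor, was higher by 1.34 at 5 µM and lower by 1.09 at 10 against 5 µM. The limma adjusted p was 0.00561 for the rise, and 0.025 without the filter. For the fall it was 0.0283, with 0.0528 when the replicate number was a block and 0.0973 without the filter. The latter call also ended without any 1 of 5 arrays, all 3 at 5 µM and replicates 2 and 3 at 10 µM, with differences from -1.23 to -0.83. Without both 10 µM replicates 2 and 3 the difference was -0.49. That call ended too with low signals raised to the floor (-0.74) and with the methods' t-test (adjusted p = 0.167). With the actin control as a covariate the INSM1 rise and both falls lost their calls, and the UCHL1 rise kept its call. A second INSM1 probe set was below the floor on all 9 arrays, with means of 3.87, 3.96 and 4.20 at 0, 5 and 10 µM.

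The summed linear signal of the 12 neural markers was 1230 to 1601 at 0 µM, 2018 to 2223 at 5 µM and 1295 to 1719 at 10 µM. Most of it was TUBB3, and without TUBB3 it was 152 to 227, 466 to 578 and 208 to 291. At 5 against 0 µM UCHL1 differed by 5.34 and SNAP25 by -0.49 on the log2 scale, so the sum does not stand for every marker. Of 12 colon epithelium markers, 10 reached the floor on all 9 arrays and CDX1 and CDX2 on none, and the summed signal was between 99330 and 103466 at 0 µM, between 72684 and 81177 at 5 µM and between 65647 and 74570 at 10 µM. Not all of that list was lower, since KRT19, a keratin, was called lower at 5 against 0 µM (-1.54, limma adjusted p = 1.68e-05) and CEACAM5, an adhesion protein, higher (1.67, adjusted p = 3.98e-05). The 6 fibroblast and endothelium markers summed to 298 to 381 at 0 µM, 1110 to 1202 at 5 µM and 632 to 796 at 10 µM. COL3A1 and VWF were below the floor throughout. Of the 3 that were tested, 2 were called higher at 5 against 0 µM (66.7%, beside 8.6% of all tested genes). They were COL1A1 (2.68, limma adjusted p = 0.00014) and LUM (1.57, adjusted p = 0.000165), and PECAM1 was not called (0.63). The 3 blood markers summed to 67 to 101, 52 to 85 and 19 to 76, with PTPRC below the floor throughout. The part of these shifts in the BEX2 values was not tested. In a culture measured as a whole, more cells with BEX2 transcript and more transcript per cell cannot be told apart.

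The genes whose pattern was most like that of BEX2 were ranked by Pearson r over the 9 arrays, with values under the floor raised to it. The 9 points fall into the 3 dose groups and all genes share the same arrays, so r describes the order and spacing of the groups, and 154 of 11755 genes had r of at least 0.95 and 511 of at least 0.90. The first 5 were MMP13 (0.994), WDR72 (0.992), EP300-AS1 (0.991), MAEL (0.991) and KDELR3 (0.991). UCHL1 had r = 0.947.

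MMP13, a secreted collagenase, read 1.48, 3.50 and 3.31 at 0 µM, 7.96, 8.07 and 7.83 at 5 µM, and 5.53, 6.70 and 5.93 at 10 µM. Its 10 µM replicate 2 was the highest of that group, as was that of BEX2, WDR72, MAEL and KDELR3, and it tied for highest in EP300-AS1. The genes were chosen by their r with BEX2 over these same arrays. MAEL, a germline gene of the piRNA pathway, read 3.61, 0.93 and 2.38 at 0 µM, 9.44, 9.67 and 9.67 at 5 µM, and 6.56, 6.93 and 6.67 at 10 µM. EP300-AS1, an antisense transcript at the EP300 locus, had means of 4.02 ± 0.34, 6.73 ± 0.12 and 5.78 ± 0.29 (SD, n = 3). These 3 genes were below the floor on every vehicle array. WDR72, an endosomal protein gene of enamel formation, and KDELR3, a receptor that returns proteins to the endoplasmic reticulum, were above the floor on all 9 arrays, with means of 8.35, 10.56 and 9.11 for WDR72 and 9.89, 10.74 and 10.29 for KDELR3.

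**Figure D5:**
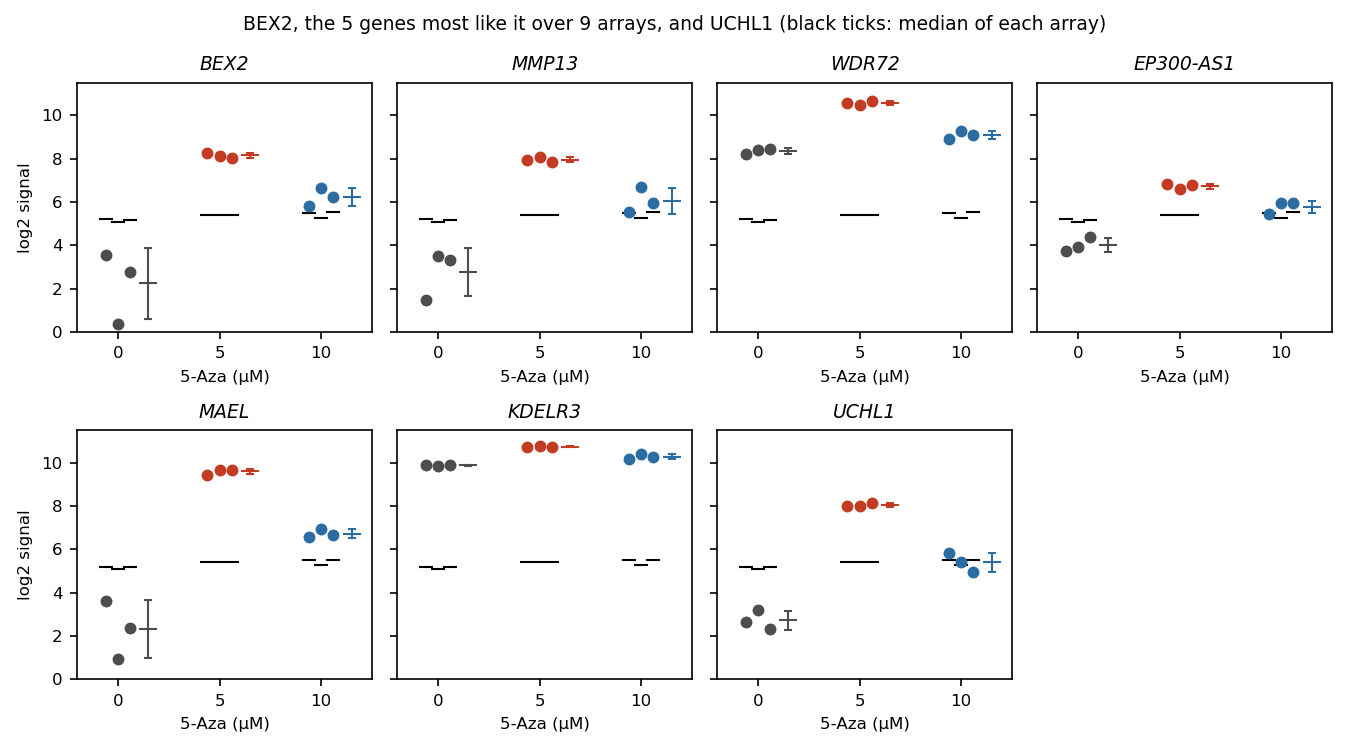
Log2 signals (vertical axes) of BEX2, the 5 genes with the highest r to it and UCHL1 by 5-Aza concentration in µM, with 1 point per array, the mean ± SD (n = 3) and the floor of each array as black ticks. In each panel the 5 µM arrays are highest and the 10 µM arrays lie between them and the vehicle arrays.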

How the data were processed

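The deposited values are log2 signals of 54675 probe sets on 9 arrays, and 6 probe sets with a missing value were left out. The processing notes of the submitters name RMA and affy 1.14.2, yet the values have the form of MAS 5.0 signals: log2 of multiples of 0.1 with a 2% trimmed mean of 250.0 on every array. They were used as deposited. Probe sets were named by the platform's gene table and RefSeq, and a gene was read from its probe set with the highest mean. The floor, the filter and the call are given in the report, and lmFit and eBayes of limma 3.58.1 (R 4.3.3, two-sided) fitted 1 mean per dose to all 9 arrays. It was tested on simulated data. The number of arrays limits the precision. The members, the gene lists and the tests were chosen with earlier results of these data known. Named by rule were the 4 members, BEX3, DNMT1, called genes of the X window, up to 4 called genes of the p75 and neural lists, and the 5 genes most like BEX2. Other genes were given outside this rule, among them NGFR, TCEAL4, TCEAL8, TCEAL9, ARMCX3 and TAF7L. So were KRT19, CEACAM5, COL1A1 and LUM of the cell type lists. Upstream bases came from the RefSeq promoter table and were aligned with Biopython 1.88. Replicate numbers were checked as pairs: deviations of same-numbered arrays correlated from -0.09 to 0.18, so they were not used as pairs. Alternatives covered scaling, filter, probe set choice, test, covariate, block and left-out arrays.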

Additional observations from a re-analysis of the deposited data

How the results depend on the processing

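The measured BEX2 difference ran from 5.00 to 6.58 at 5 against 0 µM, from -2.13 to -1.71 at 10 against 5 µM and from 3.07 to 4.65 at 10 against 0 µM as each array was left out. Raising low signals to the floor gave 3.01 and 1.09 for the comparisons with vehicle, and leaving out 10 µM replicates 2 and 3 gave -2.35 at 10 against 5 µM. With the floor at the 60th percentile the BEX2 bounds were at least 4.04-fold at 5 µM and 1.06-fold at 10 µM, where 1 of 3 arrays reached that floor. With quantile normalization they were 6.91 and 1.79, and with equal array medians 6.71 and 1.75. BEX1, BEX4 and BEX5 were tested only in the fit without the filter, where none was called. In the other settings they failed the filter and could not be called. Calls in the window at 5 against 0 µM were 2, with 4 without the filter, 3 when 10 µM replicates 2 and 3 were left out, with the mean of probe sets, with probe sets as units and without _x_at and _s_at probe sets, and 2 to 3 as each array was left out. At 10 against 5 µM they were 0, with 1 when 10 µM replicates 2 and 3 were left out, when 2 groups were fitted alone, with the mean of probe sets, with probe sets as units and without _x_at and _s_at probe sets, and 0 to 1 as each array was left out, with 1 without 0 µM replicate 1 or 3, 5 µM replicate 2 or 10 µM replicate 2. At 10 against 0 µM they were 1, with 3 without 10 µM replicates 2 and 3, 0 with the actin covariate, 2 with equal medians, no filter or probe sets, and 1 to 2 as each array was left out (2 without 10 µM replicate 2). Calls of the p75 list were 3 at 5 against 0 µM, with 0 under the actin covariate, 1 with the 60th percentile floor or without _x_at and _s_at probe sets, 2 with equal medians, raised signals, the mean of probe sets or the methods' t-test, 4 without the filter, and 2 to 4 as each array was left out. At 10 against 5 µM they were 1, with 0 under the actin covariate, the mean of probe sets or without _x_at and _s_at probe sets, 2 without the filter, and 0 to 1 as each array was left out (0 without 5 µM replicate 3). At 10 against 0 µM they were 3, with 0 under the actin covariate, the 60th percentile floor, raised signals or the methods' t-test, 6 with probe sets, 1 without 10 µM replicates 2 and 3, with the mean of probe sets, without the filter or without _x_at and _s_at probe sets, and 1 to 3 as each array was left out (1 without 10 µM replicate 2). Small changes turned sign. GLA at 10 against 5 µM was -0.04 and BDNF at 10 against 0 µM -0.25 with the actin covariate. NFKBIA at 10 against 0 µM was -0.017 without 10 µM replicates 2 and 3, -0.32 with the covariate, -0.25 with equal medians, -0.46 with the mean of probe sets and -0.0020 to 0.053 as each array was left out. INSM1 at 10 against 0 µM was -0.033 with equal medians, -0.052 with quantile normalization and -0.057 to 0.51 as each array was left out, lowest without 10 µM replicate 1. The UCHL1 call at 10 against 0 µM ended with raised signals (0.44). The extra window calls were TAF7L, TCEAL4, ZMAT1, RPL36A, ARMCX3, RAB40A, TIMM8A and BEX3. With the actin covariate TCEAL3, GLA and UCHL1 kept their calls at 5 against 0 µM, and INSM1 lost its call (1.91, limma adjusted p = 0.0625). At 10 against 5 µM the covariate ended the calls of UCHL1 (-2.07, adjusted p = 0.0977) and INSM1 (-0.65, adjusted p = 0.554). The cause of these shifts was not tested.

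The replicate number as a block left the BEX2 differences at 5.92, -1.93 and 3.999, with 2, 0 and 1 calls in the window and 3, 1 and 3 in the p75 list. It ended the call of INSM1 at 10 against 5 µM and no other named call, and 3 of 9 arrays correlated best with their own number. Over all genes, equal array medians moved the median change at 5 against 0 µM from 0.04 to -0.22 and the share of calls that were higher from 86.7% to 61.9%, and at 10 against 0 µM from 80.2% to 49.1%. With quantile normalization the shares were 78.7% and 68.9%. The actin covariate rises with dose and leaves 0 calls at 10 against 0 µM.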
